A study of Homo sapiens with 46 samples.

Results

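The APOBEC3 genes encode the cytidine deaminases of the human APOBEC3 family: APOBEC3A, APOBEC3B, APOBEC3C, APOBEC3D, APOBEC3F, APOBEC3G and APOBEC3H. They were found by symbol, and all 7 were found in both deposited tables. RNA-seq levels were followed in human cell lines that had lost the DNA end-binding protein Ku, in 46 libraries of 18 groups. Of the 7 genes, 6 passed the low-count filter in each fit. APOBEC3A did not pass in HCT116 cells, and APOBEC3H did not pass in HEK293 cells.

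HCT116 is a colorectal carcinoma line, and most libraries came from HCT116 clones whose Ku80 carries an auxin-inducible degron (Ku80-AID). In these clones auxin (IAA, 100 µM) with doxycycline (0.5 µg/mL) leads to breakdown of the Ku80 protein. The DMSO libraries received neither IAA nor doxycycline. IAA was given for 1, 2, 4 or 6 days, and DMSO for 1 or 2 days, so 2-day DMSO libraries were the reference at 4 and 6 days too. Clones 1, 7 and 9 gave 1 library each per group, except that the 1-day groups and the 2-day groups with a CDK4/6 inhibitor (CDKi, dose not given in the sources used here) held clones 1 and 9. CDKi was given with IAA or alone, for 2 or 4 days. The titles of these clone 1 and 9 groups give times in hours and those of the other intact groups in days. Whether the hour-labelled libraries were prepared separately is not given in the sources used here, so in any comparison across both kinds of label the library set cannot be told apart from time or treatment. Another clone set, Ku80-AID, MAVS-/- clones 1, 13 and 15, received IAA or DMSO for 4 days. MAVS is the mitochondrial adaptor that passes on RNA sensing by the helicases RIG-I and MDA5. HCT116 Ku86flox/-:CreERT2 cells, in which the other Ku80 allele is already lost, carry a Cre recombinase that 4-hydroxytamoxifen (4OHT) switches on (the Cre line). Ku86flox/- cells without Cre (the no-Cre line) served as its control. Both lines received 50 nM 4OHT or ethanol for 4 days, with 2 replicates each. HEK293, an embryonic kidney line, was used as Ku70-/- clones Sa11, SB and TI that live on a doxycycline-inducible ectopic Ku70. These were kept 8 days without doxycycline or with it (1 µg/mL).

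APOBEC3 enzymes remove the amino group of cytosine in single-stranded DNA, which leaves uracil. They are known as restriction factors that mutate the reverse transcripts of retroviruses and retrotransposons, and APOBEC3A and APOBEC3B are also known as sources of mutations in tumour genomes. APOBEC3A, APOBEC3C and APOBEC3H have a single deaminase domain, and the other members carry a pair of them. In many cell types interferon raises transcription of several members, and APOBEC3B is known to be repressed outside the cell cycle by the DREAM complex.

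The 7 genes lay in 1 run on the plus strand of chromosome 22 in the GENCODE v29 annotation of GRCh38, over 151 kb. Their order was APOBEC3A (38952741 to 38992778), APOBEC3B (38982347 to 38992804), APOBEC3C (39014083 to 39020352), APOBEC3D (39021113 to 39033276), APOBEC3F (39040604 to 39053910), APOBEC3G (39077005 to 39087743) and APOBEC3H (39097224 to 39104067). The annotated span of APOBEC3A overlapped that of APOBEC3B. CBX6 and CBX7, which encode chromobox proteins of Polycomb complexes, flanked the cluster on the minus strand. Because the members are recent duplicates, their transcripts share stretches of sequence. Of the distinct 31-base words in its annotated transcripts, 47.7% of those of APOBEC3B, 30.2% of APOBEC3F, 28.5% of APOBEC3A, 22.5% of APOBEC3D, 9.41% of APOBEC3G, 6.29% of APOBEC3C and 0% of APOBEC3H were also found in another member. APOBEC3D had the fewest words of its own, 10.1%, against 98.4% for APOBEC3H. An annotated transcript of this locus listed under its own row, ENSG00000284554, held 82.1% of the words of APOBEC3D. Counts of APOBEC3D, and to a lesser degree of APOBEC3A, APOBEC3B and APOBEC3F, are therefore uncertain as to which copy the reads came from. Strand use in counting is not given in the sources used here, so antisense reads cannot be told apart from these genes.

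The RefSeq promoter table held 1 of the 7 members, APOBEC3H, which lies at the far end of the cluster. The 250 bases before its start are shown because interferon-response and STAT elements were searched there (chr22:39096994-39097243, GRCh38.p14, plus strand).
APOBEC3H: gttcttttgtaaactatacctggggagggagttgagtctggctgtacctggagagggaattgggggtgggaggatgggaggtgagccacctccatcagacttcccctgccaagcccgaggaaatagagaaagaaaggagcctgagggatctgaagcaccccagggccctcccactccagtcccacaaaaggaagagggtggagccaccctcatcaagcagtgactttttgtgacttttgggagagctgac
No base is capitalised, because neither the core of an interferon-stimulated response element, which was searched as GAAA, any 2 bases and GAAA again, nor TTCNNNGAA, a STAT site, was found on either strand. The search covered 300 bases, these and the 50 after the start. Among the 35116 promoters of the table, 3.57% held the interferon-response pattern and 7.66% held TTCNNNGAA.

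Depth was 9.53 to 45.7 M estimated counts (M, units of 1e6) in the degron libraries, 13.05 to 17.6 M in the flox lines and 19.6 to 28.5 M in HEK293. XRCC5, the Ku80 gene, had 24.8 to 30.5 CPM (counts divided by the library total in units of 1e6) in the Cre line with 4OHT, against 257 to 262 CPM with ethanol. XRCC6, the Ku70 gene, had 313 to 652 CPM without doxycycline in HEK293, against 2197 to 3725 CPM with it. The degron acts on protein, and XRCC5 RNA was present at 167 to 229 CPM after 4 days of IAA, against 286 to 310 CPM with 2-day DMSO. MAVS RNA remained in the MAVS-/- clones, at 112 to 199 CPM, against 263 to 463 CPM in the other degron clones. The HCT116 colon epithelial markers summed to 2508 to 4836 CPM in the degron libraries and 3569 to 6521 CPM in the flox lines, with CDX1 at 0 in every degron group, against 195 to 480 CPM in HEK293. Summed markers of blood cells, which are rich in APOBEC3, stood at 0.159 to 3.58 CPM in the degron libraries, 2.17 to 4.94 CPM in the flox lines and 6.45 to 12.5 CPM in HEK293. In bulk libraries like these, fewer cells of a kind and less RNA per cell cannot be told apart.

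APOBEC3C was the main APOBEC3 transcript of both cell lines. On the length-corrected scale TPM (transcripts per 1e6 transcripts) it made up a median 70.0% of summed APOBEC3 expression in the degron libraries (lowest 56.1%, highest 80.4%), 69.5% in the flox lines and 62.3% in HEK293. Over the degron libraries APOBEC3F had a median share of 14.5% and APOBEC3B one of 9.11%, but their order depended on the group. APOBEC3B averaged 10.3 TPM and APOBEC3F 5.38 TPM after 1 day of IAA, 9.40 and 3.70 TPM with 1-day DMSO, and 10.3 and 6.83 TPM with 2-day DMSO. Median levels over the 32 degron libraries were 58.1 TPM for APOBEC3C, 10.6 TPM for APOBEC3F, 9.02 TPM for APOBEC3B, 1.87 TPM for APOBEC3H, 1.01 TPM for APOBEC3D and 0.14 TPM for APOBEC3G. APOBEC3A was at 0 in 31 of the 32 degron libraries and in 6 of the 8 flox libraries, with a single read in the remaining ones. In HEK293 it was present at 0.833, 0.971 and 0.717 CPM without doxycycline and 0.721, 0.805 and 0.983 CPM with it in clones Sa11, SB and TI. These ranges overlapped.

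The summed level of the family differed between groups, from 1-day DMSO as the lowest HCT116 group to the MAVS-/- clones with DMSO and the Cre line as the highest. It was 39.5 to 40.1 TPM in 1-day DMSO libraries and 73.4 to 85.5 TPM in 2-day DMSO libraries, then 106 to 116 TPM after 2 days, 93.3 to 106 TPM after 4 days and 62.1 to 72.8 TPM after 6 days of IAA. The 2-day and 4-day IAA libraries lay above all 2-day DMSO libraries, and the 6-day libraries lay below them. It reached 83.0 to 274 TPM in MAVS-/- clones with DMSO and 188 to 197 TPM in the Cre line with ethanol, against 67.8 to 75.0 TPM in the no-Cre line with ethanol.

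**Figure D1:**
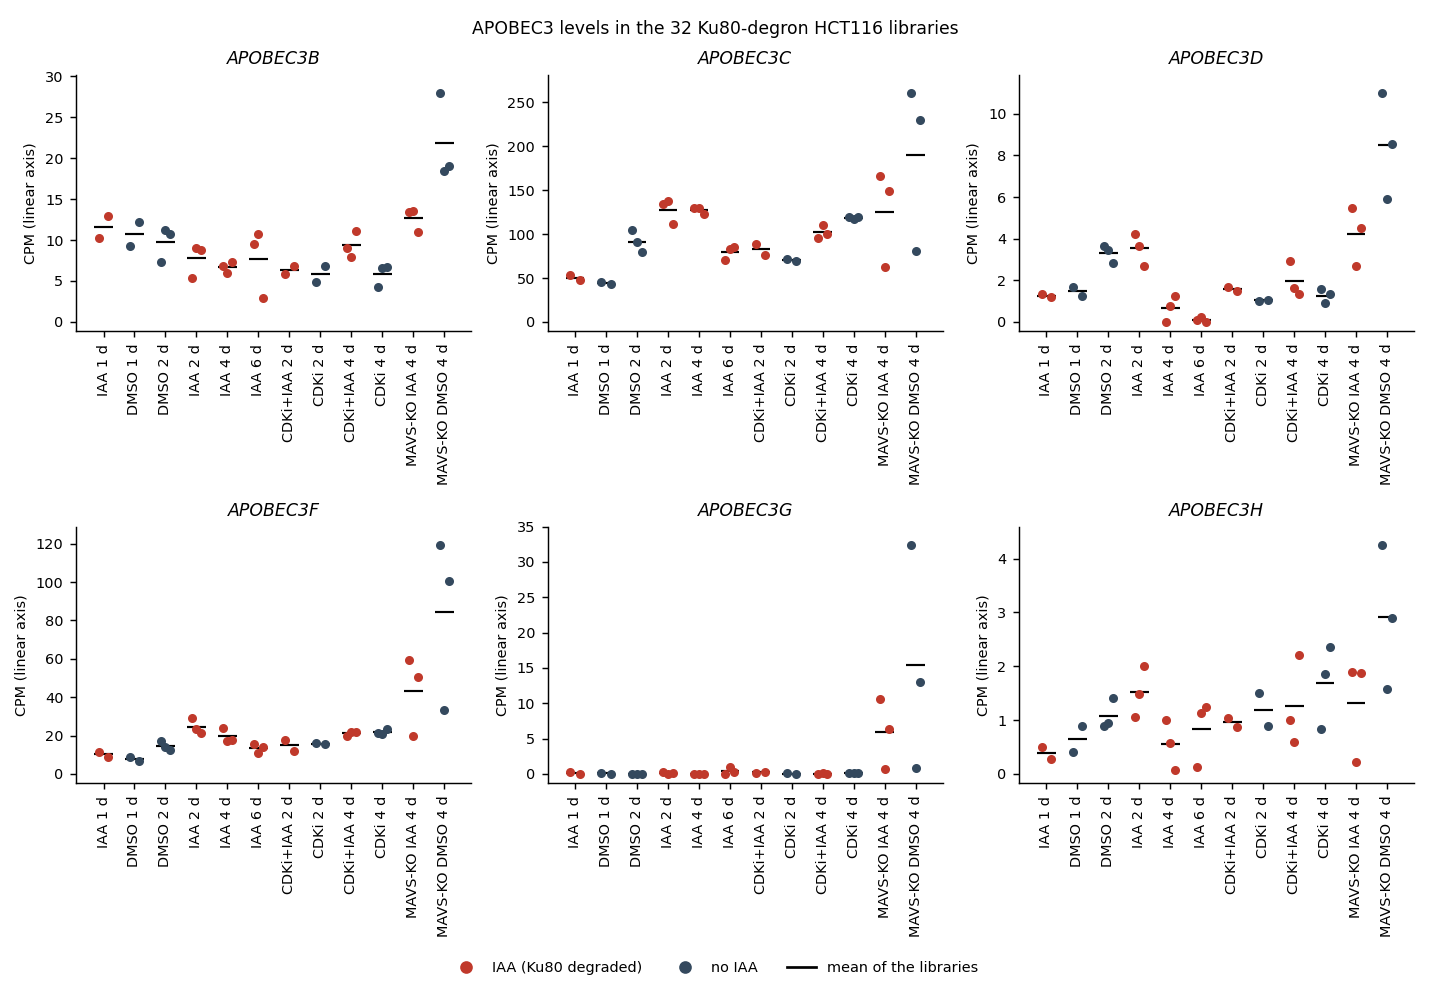
CPM (linear axis) of 6 APOBEC3 genes in the 32 Ku80-AID libraries, 1 point per clone, with a line at the mean of each of the 12 groups; red points received IAA. APOBEC3D stands at 0 to 0.234 CPM after 6 days of IAA, and APOBEC3G is high only in MAVS-/- clones 1 and 15.

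The question of the degron series is what the loss of Ku80 does to transcription over days. Among the APOBEC3 genes, APOBEC3D fell after 4 and 6 days of IAA against 2-day DMSO, and no other member passed the threshold. The test was edgeR's quasi-likelihood test across all genes without a clone block, with p-values adjusted by Benjamini-Hochberg and called under 0.05. These clones received doxycycline only together with IAA, so doxycycline and Ku80 loss cannot be told apart. At 4 and 6 days the longer treatment than that of DMSO cannot be told apart from them either. After 1 day, 0 of the 6 members tested were called, where 0.185% of all genes were. Before adjustment 0 had a p under 0.05, and both DESeq2 and limma made 0 calls. After 2 days, 0 of 6 were called, against 19.1% of all genes. Before adjustment 0 had a p under 0.05, DESeq2 made 0 calls and limma 1. With the clone as a replicate block edgeR called 2 members higher, APOBEC3C (adjusted p 0.00782) and APOBEC3F (0.00289). After 4 days 1 of 6 was called lower, where 14.9% of all genes were lower, and after 6 days 1 of 6, where 17.5% of all genes were. With 6 members tested, 1 call is close to these shares of all genes. The clone block gave 3 calls at 4 days, APOBEC3C and APOBEC3F being higher, and 2 at 6 days. The median log2 change of the 6 members was 0.38 after 2 days, -0.02 after 4 days and -0.27 after 6 days, against 0, 0.04 and 0 over all genes tested. Without APOBEC3G, which had 0 counts with 2-day DMSO so that its fitted change is no measure of size, it was 0.37, -0.51 and -0.34. After 4 days 2 of these 5 members were above 0 and 3 below.

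APOBEC3D, a member with paired deaminase domains that can be packaged into retroviral particles, had 3.65, 3.44 and 2.81 CPM in clones 1, 7 and 9 with 2-day DMSO. It had 4.23, 3.67 and 2.70 CPM after 2 days, 0, 0.759 and 1.25 CPM after 4 days and 0.0874, 0.234 and 0 CPM after 6 days of IAA. The 2-day libraries overlapped DMSO, while all 4-day and 6-day libraries lay below every DMSO library. The log2 fold change was -2.33 ± 0.65 (SE) after 4 days, with an adjusted p of 0.00704, and -4.99 ± 0.76 after 6 days, with an adjusted p of 9.66e-06. The 6-day value rests on 9 counts in the 3 libraries with IAA, against 112 counts with DMSO. Fitted on the compared groups alone, the adjusted p at 4 days was 0.102. APOBEC3D also fell between 2 and 4 days of IAA, with a log2 fold change of -2.33 ± 0.65 (adjusted p 0.0258, edgeR), and between 4 and 6 days, with -2.67 ± 0.79 (adjusted p 0.0270). It was the 1 member of 6 called in each of these steps, where 3.44% and 7.11% of all genes fell. Without 2-day clone 1 or 7 the first of these had an adjusted p of 0.0724 or 0.0723. In the compared groups alone it was 0.278. The second had 0.0781 without 6-day clone 1, 0.0907 without 6-day clone 9, 0.0750 without 4-day clone 7 and 0.158 without 4-day clone 9, with 0.388 in limma and 0.673 in the compared groups alone.

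The lower APOBEC3D level was seen beside a change in which row took the reads. The row ENSG00000284554 had 26 counts in clone 1 after 4 days, where APOBEC3D had 0, and 16 and 9 counts in clones 1 and 9 after 6 days, where APOBEC3D had 4 and 0. With 2-day DMSO it had 0 in all 3 clones. Both rows summed gave 3.65, 3.44 and 2.81 CPM with 2-day DMSO, 1.19, 0.759 and 1.25 CPM after 4 days and 0.437, 0.234 and 0.286 CPM after 6 days of IAA. The sum still fell, with log2 fold changes of -1.59 ± 0.36 after 4 days (adjusted p 0.000996, edgeR) and -3.28 ± 0.38 after 6 days (adjusted p 1.69e-07). APOBEC3D and APOBEC3F counted together did not pass, at 0.22 after 4 days (adjusted p 0.648) and -0.38 after 6 days (adjusted p 0.369). APOBEC3D took 17.5 to 19.7% of the reads of this pair with 2-day DMSO, 11.3 to 13.6% after 2 days, 0 to 6.67% after 4 days and 0 to 2.15% after 6 days of IAA. The sum of the pair therefore largely follows APOBEC3F. How far the division of reads between copies takes part in the fall was not tested.

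APOBEC3C, a single-domain member with weak antiretroviral activity, was higher after 2 and 4 days of IAA than with DMSO in each intact clone. It had 104, 90.6 and 79.5 CPM with 2-day DMSO in clones 1, 7 and 9, then 134, 137 and 112 CPM after 2 days, 130, 130 and 123 CPM after 4 days and 70.9, 82.6 and 85.4 CPM after 6 days of IAA. All 2-day and 4-day libraries lay above the DMSO libraries, and the 6-day libraries overlapped them in CPM. In TPM the 6-day libraries, at 41.9 to 47.9, lay below the 49.1 to 62.2 of 2-day DMSO. The same clone with IAA over DMSO gave ratios of 1.28 to 1.51 after 2 days and 1.25 to 1.55 after 4 days. The log2 fold change of 0.38 ± 0.27 at 2 days had an adjusted p of 0.381, and that of 0.53 ± 0.27 at 4 days had 0.138 (edgeR). With the clone as a replicate block the adjusted p was 0.00782 at 2 days and 0.000213 at 4 days. From 4 to 6 days of IAA the difference was -0.72 ± 0.27 with an adjusted p of 0.0729, and 8.87e-05 with the replicate block. These 6-day and 4-day libraries did not overlap.

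APOBEC3F, a paired-domain restriction factor of retroviruses, had a like course in CPM. It had 17.1, 13.99 and 12.8 CPM with 2-day DMSO, 29.2, 23.2 and 21.2 CPM after 2 days, 24.2, 16.995 and 17.5 CPM after 4 days and 15.7, 10.7 and 13.96 CPM after 6 days of IAA. In CPM the 2-day libraries lay above all DMSO libraries, the lowest 4-day library overlapped DMSO, and the 6-day range overlapped it. In TPM APOBEC3F had 4.62 to 8.24 with 2-day DMSO, 10.5 to 18.6 after 4 days and 10.6 to 13.3 after 6 days of IAA. On that scale neither the 4-day nor the 6-day libraries overlapped DMSO. The 6-day value of 0.71 in limma, which uses TPM, did not pass. The 2-day log2 fold change was 0.65 ± 0.33, with an adjusted p of 0.191 (edgeR) and 0.00289 with the replicate block. At 4 days it was 0.46 ± 0.33, with 0.306 (edgeR) and 0.0211 with the replicate block. From 4 to 6 days it was -0.56, with 0.257 and, with the block, 0.0118.

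APOBEC3B, the nuclear member linked to tumour mutation, had 7.29, 11.3 and 10.7 CPM with 2-day DMSO, 5.42, 9.03 and 8.80 CPM after 2 days, 6.78, 6.02 and 7.33 CPM after 4 days and 9.53, 10.7 and 2.92 CPM after 6 days of IAA. Each clone was lower with IAA than with DMSO at 2 days (ratios 0.744 to 0.819) and 4 days (0.533 to 0.930), yet the groups overlapped. The log2 fold changes of -0.45, -0.51 and -0.34 did not pass, with adjusted p of 0.398, 0.245 and 0.435 (edgeR). APOBEC3H, a polymorphic member with several allelic protein forms, had 0.887, 0.952 and 1.41 CPM with 2-day DMSO, 1.06, 1.48 and 2.00 CPM after 2 days, 1.01, 0.584 and 0.078 CPM after 4 days and 0.131, 1.12 and 1.24 CPM after 6 days of IAA, and these overlapped.

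APOBEC3G, the member best known for restricting HIV that lacks Vif, was close to absent in the intact degron clones. It had 0, 20 and 11 counts in clones 1, 7 and 9 after 6 days of IAA, against 0 counts in all 3 libraries with 2-day DMSO. Clone 1 thus overlapped DMSO. That made it at least 3.54-fold higher after 6 days, against a floor of 3 counts over the DMSO group, with an adjusted p of 0.0758 (edgeR). The bound was 6.60-fold without 6-day clone 1 and 1.60-fold without clone 7. It was called with the replicate block (adjusted p 0.0262), with DESeq2 (0.0275) and without 6-day clone 1 (0.0295).

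**Figure D2:**
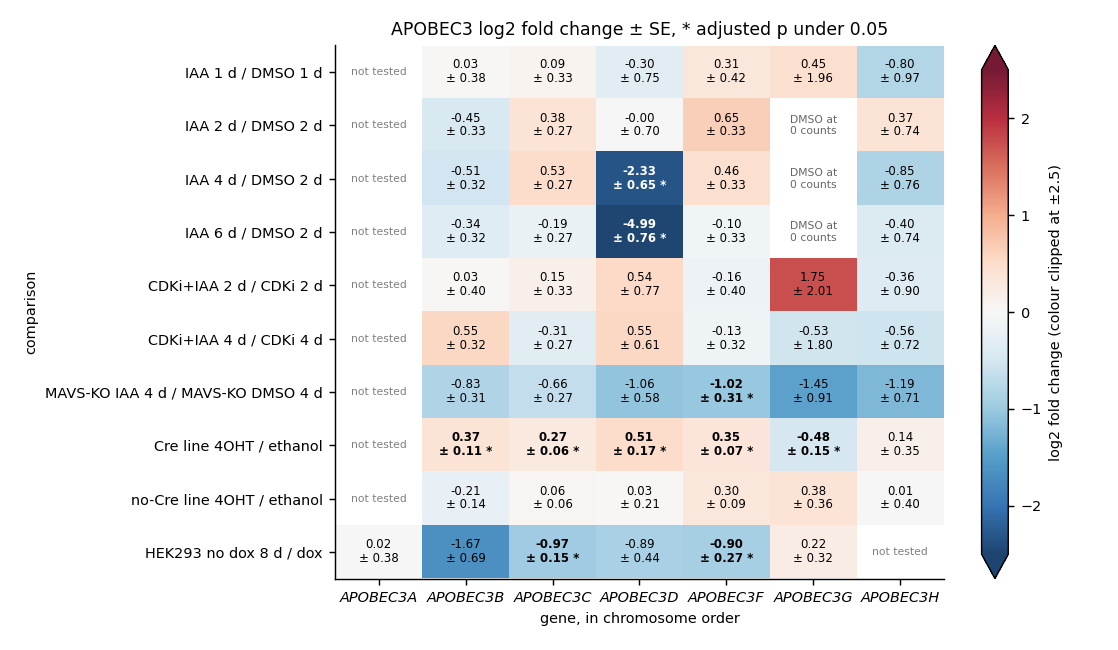
Log2 fold change ± SE of the 7 APOBEC3 genes in 10 comparisons (edgeR; bold with an asterisk where the adjusted p was under 0.05; colours end at 2.5 in either direction). APOBEC3D passed after 4 and 6 days of IAA in Ku80-AID clones, at -2.33 and -4.99, while APOBEC3C and APOBEC3F passed in HEK293, at -0.97 and -0.90.

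With the CDK4/6 inhibitor, which arrests cells before S phase, no member passed the threshold. CDKi with IAA against CDKi alone gave 0 of 6 calls at 2 days, where 0.413% of all genes were called, and 0 of 6 at 4 days, where 11.2% were. In both, 0 members had a p under 0.05 before adjustment, with 0 calls from DESeq2 and limma. At 4 days APOBEC3D had 2.94, 1.64 and 1.36 CPM with CDKi and IAA, against 1.57, 0.904 and 1.33 CPM with CDKi alone, and these ranges overlapped. APOBEC3B had 8.97, 7.97 and 11.1 CPM with CDKi and IAA, against 4.31, 6.64 and 6.75 CPM with CDKi alone. Those ranges did not overlap, though the log2 fold change of 0.55 had an adjusted p of 0.327 (edgeR). APOBEC3C had 95.7, 109.9 and 100.3 CPM with CDKi and IAA, against 119, 117 and 119 CPM with CDKi alone, so every library with IAA was lower. Its log2 fold change of -0.31 had an adjusted p of 0.538, and 0.034 with the replicate block.

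CDKi alone against 2-day DMSO gave 0 of 6 calls at 2 days, where 34.4% of all genes were called, and 0 of 6 at 4 days, where 7.69% were. The 2-day CDKi libraries carry the hour labels and their DMSO libraries the day labels. At 4 days CDKi cannot be told apart from the longer treatment. At 2 days 1 member, APOBEC3D, had a p under 0.05 before adjustment. APOBEC3D had 1.03 and 1.04 CPM in clones 1 and 9 with CDKi, below the 2.81 to 3.65 CPM of DMSO. Its log2 fold change of -1.53 ± 0.72 had an adjusted p of 0.101 in edgeR and 0.0303 in DESeq2, which called 1 member where limma called 2. At 4 days 2 members, APOBEC3D and APOBEC3F, had a p under 0.05 before adjustment, limma called 1 member and DESeq2 0. There APOBEC3D had 0.904 to 1.57 CPM with CDKi, again below the 2.81 to 3.65 CPM of DMSO. Its log2 fold change of -1.26 ± 0.61 had an adjusted p of 0.230 (edgeR). At 4 days APOBEC3C and APOBEC3F stood at 0.49 and 0.69 (adjusted p 0.304 and 0.226, edgeR), and both passed with the replicate block (0.00214 and 0.0032). CDKi with IAA against IAA alone at 4 days called 0 of 6 in edgeR, where 13.2% of all genes were called, 1 in DESeq2 and 0 in limma, and 1 had a p under 0.05 before adjustment. That member, APOBEC3D, stood at 1.61 ± 0.66 (adjusted p 0.106, and 0.037 without 4-day IAA clone 9), and APOBEC3C at -0.35 (0.417, and 0.0184 with the replicate block). The difference of the IAA response with and without CDKi, tested as an interaction, also called 0 of 6, where 4.69% of all genes were called. Its reference was 4-day CDKi in cells with CDKi and 2-day DMSO in cells without, so CDKi and duration cannot be told apart. Before adjustment 3 members had a p under 0.05, and DESeq2 and limma made 1 call each. APOBEC3D had an interaction of 2.88 ± 0.89 (adjusted p 0.0621, and 0.0456 or 0.0224 without 4-day IAA clone 1 or 9) and APOBEC3C one of -0.84 ± 0.38 (0.221, and 0.000812 with the replicate block).

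In the MAVS-/- clones each of the 6 members other than APOBEC3A was lower with 4 days of IAA than with DMSO in all 3 clones, whereas APOBEC3C and APOBEC3F were higher with IAA in all 3 intact clones. APOBEC3F passed the test, 1 of 6 called lower, where 3.15% of all genes were. It had 59.4, 19.9 and 50.6 CPM with IAA in clones 1, 13 and 15, against 119, 33.5 and 101 CPM with DMSO. The groups overlapped because clone 13 was low in both, while the ratios within a clone were 0.498 to 0.595. The log2 fold change was -1.02 ± 0.31 with an adjusted p of 0.0422 (edgeR). It was called in 7 of the 13 alternatives, the replicate block among them. It did not hold in limma (0.442), in a fit of these 2 groups alone (0.268), or without the DMSO libraries of clone 1 (0.283) or clone 15 (0.162) or the IAA libraries of clone 13 (0.198) or clone 15 (0.0699).

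APOBEC3C had 166, 62.4 and 148 CPM with IAA, against 261, 80.6 and 230.1 CPM with DMSO, a ratio of 0.637 to 0.775 within a clone. Its log2 fold change of -0.66 ± 0.27 had an adjusted p of 0.140 (edgeR), 0.000334 with the replicate block and 0.00327 without the DMSO library of clone 13. APOBEC3B had 13.5, 13.6 and 10.9 CPM with IAA, against 27.95, 18.5 and 19.0 CPM with DMSO, and these groups did not overlap. Its log2 fold change of -0.83 ± 0.31 had an adjusted p of 0.109. APOBEC3D (-1.06, adjusted p 0.327), APOBEC3G (-1.45, 0.430) and APOBEC3H (-1.19, 0.391) did not pass either. APOBEC3G had 10.6, 0.711 and 6.40 CPM with IAA, against 32.4, 0.865 and 12.99 CPM with DMSO, so clone 13 barely made the transcript in either arm.

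The difference between both clone sets in the response to IAA at 4 days was tested as an interaction, and 0 of 6 members passed, where 4.85% of all genes did. Before adjustment 2 members had a p under 0.05, with 2 calls from DESeq2 and 0 from limma. APOBEC3C had a difference of -1.19 ± 0.38 with an adjusted p of 0.0675 (edgeR), and 2.44e-05 with the replicate block. APOBEC3F had -1.49 ± 0.46 with an adjusted p of 0.0575, and 0.000129 with the replicate block. Without clone 13 they had -1.24 (adjusted p 2.48e-05) and -1.53 (0.00159). Both also passed without the clone 13 DMSO library alone (0.00131 and 0.00287) or the clone 1 IAA library (0.0322 and 0.0284). The DMSO arms also differ in length, 4 days in the MAVS-/- clones and 2 days in the intact clones, and the clones are different ones, so MAVS, clone and duration cannot be told apart.

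**Figure D3:**
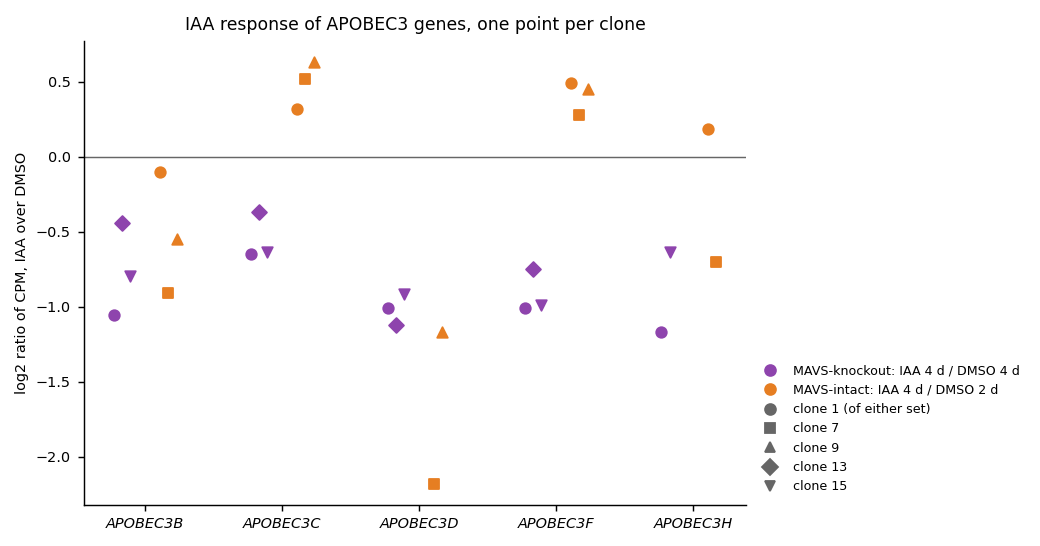
Log2 ratio of CPM with 4 days of IAA over DMSO within each clone, for MAVS-/- clones (purple, left) and intact clones (orange, right); points with at most 3 counts in an arm are not drawn. APOBEC3C and APOBEC3F lie below 0 in all 3 MAVS-/- clones and above 0 in all 3 intact clones.

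Without IAA most APOBEC3 members were already higher in the MAVS-/- clones than in the intact clones. The summed levels overlapped, at 83.0 to 274 TPM against 73.4 to 85.5 TPM with intact 2-day DMSO. Here too MAVS, clone and duration cannot be told apart. Against intact 2-day DMSO, 4 of the 6 members were higher with 4-day DMSO, where 24.5% of all genes were. APOBEC3F had 119, 33.5 and 101 CPM in MAVS-/- clones, against 17.1, 13.99 and 12.8 CPM in intact clones, a log2 fold change of 2.505 ± 0.34 (adjusted p 1.71e-06, edgeR). APOBEC3G had 670 counts over the 3 MAVS-/- libraries and 0 over the intact ones, at least 182.5-fold higher (adjusted p 4.96e-05). Clone 1 gave 480 of these counts, clone 13 11 and clone 15 179, and without clone 1 the bound was 80.7-fold. APOBEC3B rose by 1.13 ± 0.32 (0.00518) and APOBEC3C by 1.03 ± 0.27 (0.00267) on the log2 scale. For APOBEC3C clone 13, at 80.6 CPM, lay within the intact range of 79.5 to 104 CPM. Genes beside the cluster shifted too. All 7 neighbours on the list, RPL3, SUN2, CBX6, PDGFB, DNAL4, CBX7 and NPTXR, were higher in the MAVS-/- clones, with a median log2 change of 1.16. Their part in the members' difference was not tested.

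The 2-day DMSO libraries also differed from the 1-day ones, which carry the hour labels, with 37.2% of all genes called in either direction. Of the 6 members 1, APOBEC3C, was higher at 2 days, where 15.1% of all genes were. It had 104, 90.6 and 79.5 CPM in clones 1, 7 and 9 at 2 days, against 46.0 and 43.4 CPM in clones 1 and 9 at 1 day, with no overlap. The log2 fold change of 0.86 ± 0.31 had an adjusted p of 0.0295 (edgeR). It was 0.120 without 1-day clone 1, 0.151 without 1-day clone 9, 0.0851 without 2-day clone 1 and 0.0536 without 2-day clone 7.

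In the flox lines 4OHT was followed by small increases of most members in the Cre line. There 4 of 6 were higher, where 26.4% of all genes were, and 1 was lower, where 27.5% were. APOBEC3C had 280 and 263 CPM with 4OHT, against 225 and 231 CPM with ethanol, a log2 fold change of 0.27 ± 0.06 (adjusted p 0.0012, edgeR). APOBEC3F had 90.2 and 95.1 CPM with 4OHT, against 75.2 and 72.5 CPM with ethanol (0.35 ± 0.07, 0.000816). APOBEC3D had 7.34 and 6.82 CPM with 4OHT, against 4.94 and 5.16 CPM with ethanol (0.51 ± 0.17, 0.0212). In all of these the 4OHT libraries lay above both ethanol libraries, as they did for APOBEC3B, with 17.3 and 17.9 CPM against 12.4 and 15.2 CPM (0.37 ± 0.11, 0.0116). APOBEC3G fell, with 8.54 and 8.20 CPM with 4OHT, against 12.4 and 11.3 CPM with ethanol, with a log2 fold change of -0.48 ± 0.15 (0.0154). APOBEC3H, at 2.68 and 1.46 CPM against 1.87 and 1.96 CPM, overlapped. The calls of APOBEC3B (0.0993), APOBEC3D (0.163) and APOBEC3G (0.161) were lost in DESeq2, and those of APOBEC3B and APOBEC3C in limma (0.129 and 0.1297). Leaving out the first ethanol replicate lost APOBEC3B (0.138), APOBEC3D (0.0946) and APOBEC3G (0.137), and leaving out the second lost APOBEC3D (0.0695). Leaving out the first 4OHT replicate lost APOBEC3D (0.105) and APOBEC3G (0.0581), and leaving out the second lost APOBEC3B (0.0683) and APOBEC3G (0.0767). Nothing in the labels says that the 2 replicates came from separate cultures, so these p-values measure the spread between libraries that may be technical.

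The no-Cre line, which 4OHT should leave with its Ku86, gave 0 of 6 calls, where 13.7% of all genes were called. Before adjustment 1 member had a p under 0.05, with 0 calls from DESeq2 and limma. APOBEC3F had 23.9 and 20.8 CPM with 4OHT, against 16.8 and 17.99 CPM with ethanol, a log2 fold change of 0.30 ± 0.09 whose adjusted p was 0.05004, just over the threshold, 0.047 with the replicate block and 0.0466 without the second 4OHT replicate. The size was close to the 0.35 of the Cre line. The response to 4OHT differed between the lines for APOBEC3B, 1 of 6 members, where 18.8% of all genes had a positive difference, Cre minus no-Cre. APOBEC3B had 6.92 and 7.14 CPM in the no-Cre line with 4OHT, against 8.08 and 7.42 CPM with ethanol, and the interaction was 0.59 ± 0.18 (adjusted p 0.0169, edgeR). It was 0.0961 in DESeq2, 0.181 in limma, 0.0627 without the first Cre ethanol replicate and 0.052 without the first no-Cre 4OHT replicate. APOBEC3C, with 0.21 (0.0637), passed without the second no-Cre ethanol replicate (0.00534).

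The lines themselves differed more than either responded. With ethanol, 5 of 6 members were higher in the Cre line than in the no-Cre line, where 12.4% of all genes were. APOBEC3G had 12.4 and 11.3 CPM in the Cre line, against 0.708 and 0.525 CPM in the no-Cre line, a 19.0-fold ratio of pooled libraries from 403 and 19 counts (log2 fold change 4.18 ± 0.23, adjusted p 7.69e-08, edgeR). APOBEC3F had 75.2 and 72.5 CPM, against 16.8 and 17.99 CPM (2.04 ± 0.08, 4.13e-09), and APOBEC3C 225 and 231 CPM, against 93.7 and 84.2 CPM (1.30 ± 0.06, 1.53e-08). APOBEC3D and APOBEC3B rose by 0.91 ± 0.19 (0.004) and 0.77 ± 0.12 (0.000557). The Cre and no-Cre libraries of these 5 members did not overlap. Each line is a single line, so Cre and line cannot be told apart.

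In HEK293 the withdrawal of doxycycline, and with it of ectopic Ku70, was accompanied by lower APOBEC3C and APOBEC3F. These were 2 of 6 members, where 10.9% of all genes fell. No library tested the removal of doxycycline alone, so it cannot be told apart from the loss of Ku70. The time with doxycycline is not given in the sources used here. APOBEC3C had 22.1, 23.1 and 15.9 CPM without doxycycline in clones Sa11, SB and TI, against 37.2, 47.8 and 36.9 CPM with it. The groups did not overlap, the ratios within a clone were 0.432 to 0.595, and the log2 fold change was -0.97 ± 0.15 (adjusted p 0.00357, edgeR). APOBEC3F had 5.18, 7.77 and 3.63 CPM without doxycycline, against 10.6, 12.2 and 8.29 CPM with it, again with no overlap (-0.90 ± 0.27, 0.0395). Its call was lost in limma (0.0525) and in 5 of the 6 fits that left out 1 library, with adjusted p of 0.0729 to 0.133. It held without the SB library lacking doxycycline. APOBEC3B had 0.789, 2.45 and 0.169 CPM without doxycycline, against 2.502, 5.68 and 2.42 CPM with it. It was lower in every clone, at 0.0696 to 0.432 of the level with doxycycline, but its log2 fold change of -1.67 ± 0.69 had an adjusted p of 0.111. With the replicate block APOBEC3B was called at -1.91 (0.00374), and also in DESeq2 (0.0318) and without the SB library lacking doxycycline (-2.75, 0.00881). APOBEC3D (-0.89, 0.184), APOBEC3G (0.22, 0.679) and APOBEC3A (0.02, 0.983) did not pass. APOBEC3H had 1, 2 and 5 counts without doxycycline, against 5, 8 and 9 counts with it, too few for the test. HEK293 libraries were made after ribosomal depletion and HCT116 libraries after poly-A selection, and the tables were normalised separately, so levels were not compared between the lines by a test.

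**Figure D4:**
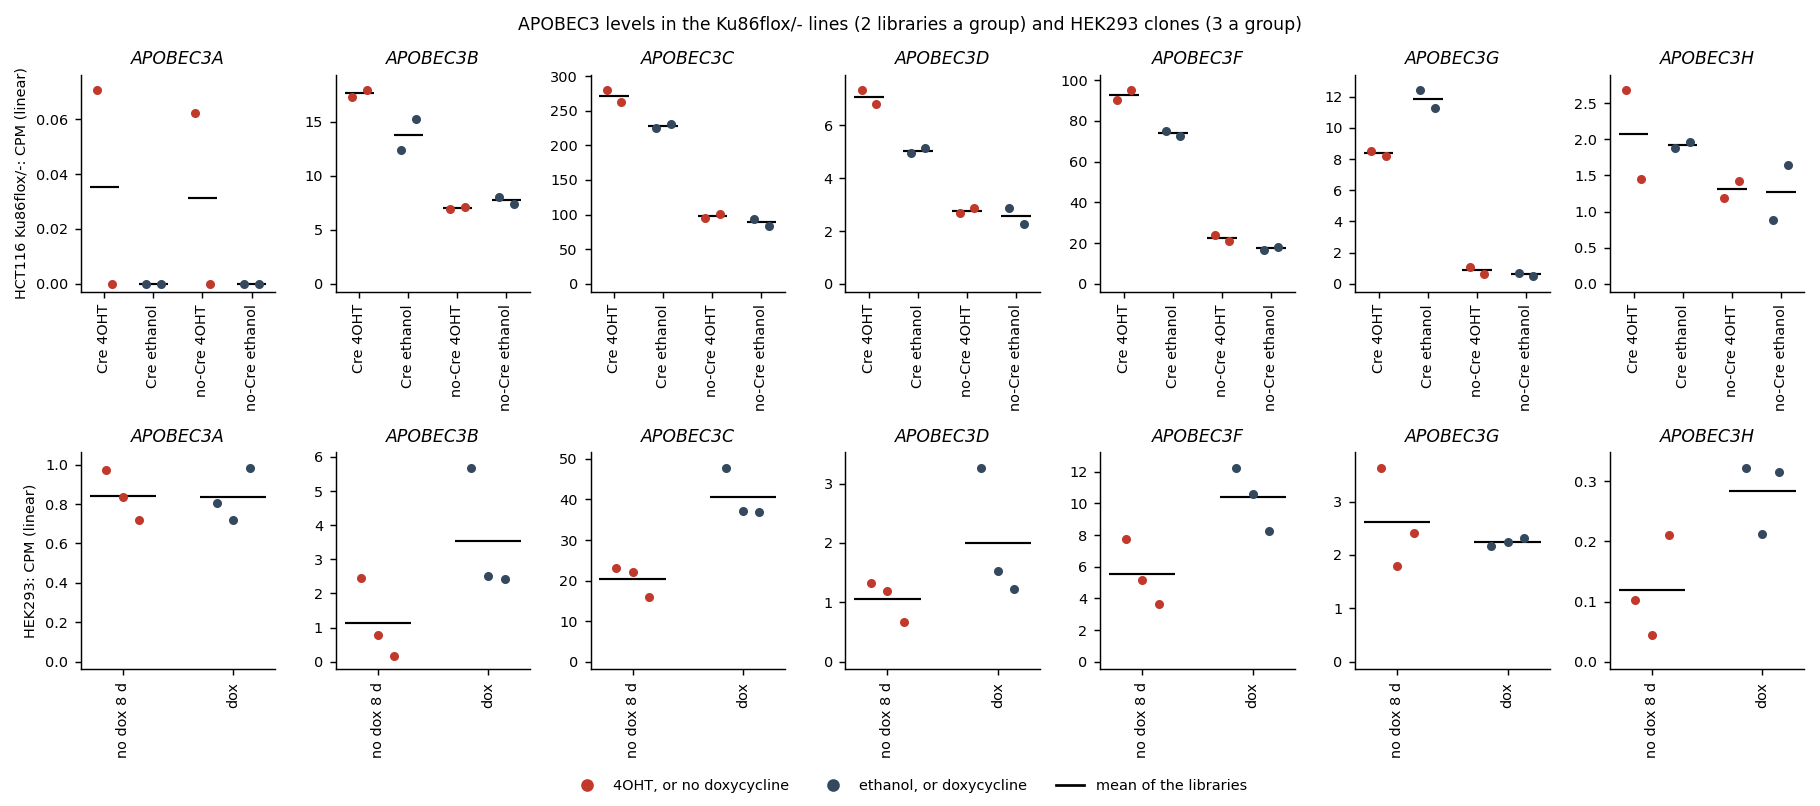
CPM (linear axis) of the 7 APOBEC3 genes in the HCT116 flox lines (2 libraries per group) and in HEK293 (3 clones per group), 1 point per library. In the flox lines the Cre line stands above the no-Cre line for APOBEC3C, APOBEC3F and APOBEC3G with ethanol and with 4OHT, and in HEK293 APOBEC3C stands at 15.9 to 23.1 CPM without doxycycline, against 36.9 to 47.8 CPM with it.

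Over the 16 HCT116 groups, the order of mean TPM was led by the Cre line and the MAVS-/- clones for APOBEC3B, APOBEC3C, APOBEC3D, APOBEC3F and APOBEC3G. APOBEC3C stood at 150.0 ± 7.95 TPM (SD, n = 2) in the Cre line with 4OHT, 133 ± 5.18 TPM with ethanol, 112 ± 56.5 TPM (n = 3) in MAVS-/- clones with DMSO and 80.7 ± 7.25 TPM after 2 days of IAA, down to 24.7 ± 0.868 TPM (n = 2) with 1-day DMSO. The first of these did not overlap the second, whereas the second to the sixth all overlapped their neighbour. APOBEC3B was highest with DMSO in MAVS-/- clones, at 20.0 ± 5.05 TPM (n = 3), above the 15.4 ± 0.217 TPM of the Cre line with 4OHT without overlap, and lowest with 2-day CDKi at 4.81 TPM. APOBEC3F ran from 39.2 ± 2.06 TPM in the Cre line with 4OHT, whose range overlapped that of MAVS-/- clones with DMSO (33.3 ± 18.3 TPM), down to 3.70 ± 0.947 TPM with 1-day DMSO. APOBEC3G had 13.9 ± 14.7 TPM in MAVS-/- clones with DMSO, 11.2 ± 0.36 TPM in the Cre line with ethanol, 7.59 ± 0.286 TPM there with 4OHT and 5.69 ± 4.9 TPM in MAVS-/- clones with IAA. In the other 12 groups it was under 0.9 TPM. APOBEC3D ranged from 6.18 TPM in the Cre line with 4OHT to 0.0762 TPM after 6 days of IAA, and the lowest pair in that order did not overlap. The 6-day libraries, at 0 to 0.179 TPM, did overlap those after 4 days of IAA, at 0 to 1.55 TPM. APOBEC3H ranged from 5.29 ± 2.77 TPM in MAVS-/- clones with DMSO to 0.588 ± 0.221 TPM with 1-day IAA, and all but the lowest neighbours in its order overlapped. That lowest group, at 0.432 to 0.745 TPM, lay within the ranges after 4 and 6 days of IAA.

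Interferon-pathway and other restriction-factor genes rose while most APOBEC3 members did not pass the test. Of 14 interferon signalling genes 9 rose and 1 fell after 4 days of IAA, and 10 rose and 1 fell after 6 days, with median log2 changes of 0.67 and 0.90. Over all genes 17.9% rose and 14.9% fell after 4 days, and 17.8% and 17.5% after 6 days. RIGI, the RNA sensor, rose by 3.56 after 4 days, IRF7 by 3.31, IFIH1 by 2.83, IRF9 by 2.11 and STAT2 by 1.52 on the log2 scale. Of 22 other restriction factors 12 rose and 3 fell after 4 days, and 14 rose and 4 fell after 6 days, led by BST2, which tethers virions (5.14 after 4 days and 5.87 after 6 days), IFITM1 (4.72 and 4.57) and MX2 (3.91 and 3.99). Of the cluster's 7 neighbours 1 was higher and 1 lower after 4 days, close to the shares of all genes.

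In the MAVS-/- clones 3 of 14 interferon signalling genes rose with IAA, where 4.73% of all genes did. The difference in the IAA response between MAVS-/- and intact clones was called negative for 6 of the 14, and for 2.39% of all genes. In the Cre line 9 of 14 rose and 2 fell with 4OHT, where 26.4% and 27.5% of all genes did, among those higher RIGI, which rose by 1.90, IFIH1 by 1.37 and IRF7 by 1.196 on the log2 scale. In HEK293 2 of 13 rose without doxycycline, IRF1 by 1.17 and RIGI by 0.99 on the log2 scale, which is close to the 11.1% of all genes that rose. BST2 and IFITM1 fell there, with log2 fold changes of -1.89 and -1.28.

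Of 14 genes that remove uracil or keep it out of DNA, 7 fell and 1 rose after 4 days of IAA, where 14.9% of all genes fell and 17.9% rose. The median log2 change was -0.48. Those that fell included UNG, the uracil-DNA glycosylase (-1.47 ± 0.13), DUT, the dUTPase (-1.42), and the replication and repair enzymes FEN1 (-1.70) and LIG1 (-1.29). Of 16 genes of the DREAM axis 7 fell and 2 rose, among them MYBL2 (-1.83) and FOXM1 (-1.77), which drive cell-cycle genes, and CDKN1A, which encodes the CDK inhibitor p21, rose by 1.23. APOBEC3B, with -0.51 and an adjusted p of 0.245 (edgeR), did not pass beside them. Of 8 other deaminases and editing partners 2 rose and 1 fell after 4 days, close to these shares, with log2 fold changes of 0.55 for ADAR, 1.00 for CDA and -0.998 for ADAT3. APOBEC1, APOBEC2 and APOBEC4, relatives outside the cluster, were at most at traces in HCT116.

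**Figure D5:**
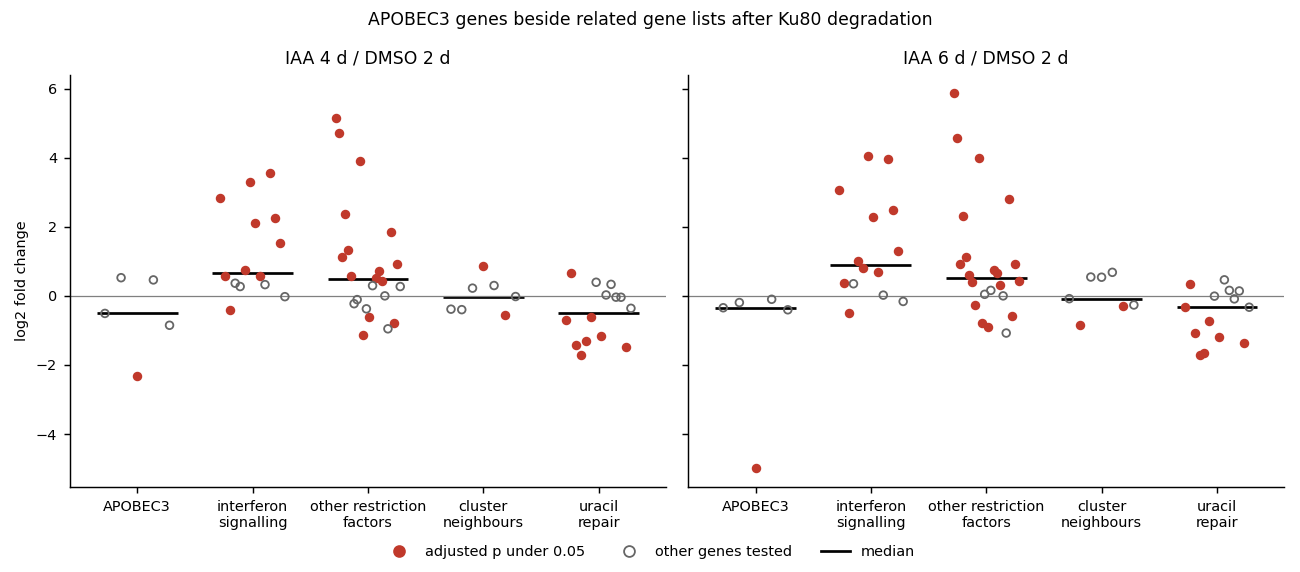
Log2 fold change after 4 and 6 days of IAA against 2-day DMSO, 1 point per gene, for the APOBEC3 genes other than APOBEC3G and for 4 gene lists; red points had an adjusted p under 0.05 and lines mark medians. The medians at 4 days are -0.51 for the 5 APOBEC3 genes drawn (-0.02 with APOBEC3G), 0.67 for interferon signalling and -0.48 for uracil repair.

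The genes whose log2(CPM + 1) followed a member most closely were sought by Pearson's r among 14556 genes of at least 1 CPM on average. The 32 degron libraries were used, in which clones recur between groups and depth differs. APOBEC3C was followed by PLEKHA2 (0.918), SERPINB6 (0.874) and SSPOP (0.871), and APOBEC3F by MAML2 (0.914), SLC27A1 (0.894) and SPATA20 (0.889). APOBEC3G was followed by PRSS33 (0.949) and MGAT5B (0.906), and APOBEC3D by ARAP3 (0.886), NFATC4 (0.874) and DPYSL2 (0.863). APOBEC3G was at 0 in 9 of the 32 libraries. Of its 1008 counts, 670 lay in MAVS-/- clones with DMSO and 274 in those with IAA, so its r values rest largely on these libraries. For APOBEC3F 3581 of 13181 counts lay in MAVS-/- clones with DMSO and 1983 in those with IAA. APOBEC3B had CFAP119 (0.813), ASXL1 (0.813) and CHTF18 (0.799), and APOBEC3H had CYP2U1 (0.807), LIF (0.803) and TIAM1 (0.783). Between members r was 0.868 for APOBEC3C with APOBEC3F, 0.835 for APOBEC3F with APOBEC3G and 0.159 for APOBEC3B with APOBEC3C.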

How the data were processed

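RNA-seq was made from poly-A-selected RNA of HCT116 cells and from ribosomal-depleted RNA of HEK293 cells, per the labels' protocols. The deposited tables hold estimated counts and TPM per gene for each library, quantified by the authors against GRCh38. The submitters' processing notes name Salmon 1.10.2, kallisto 0.50.0 and DESeq2, and which tool made which table is not given in the sources used here. Estimated counts were rounded to whole numbers. TPM, as deposited, was used for levels between genes and for limma, and CPM was computed from each library's total.

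Counts were tested with edgeR 4.0.16 in R 4.3.3 (TMM, filterByExpr with a minimum count of 10, quasi-likelihood test, Benjamini-Hochberg over all genes, called under 0.05) in 3 separate fits. The degron fit held 32 libraries and 18877 genes, the flox fit 8 and 16726, and the HEK293 fit 6 and 15549. Their biological coefficients of variation were 21.7%, 4.63% and 20.8%. The tests were checked on simulated data with known changes. Alternatives were RLE scaling, a fit with every gene kept, DESeq2 1.42.0, limma 3.58.1 (on log2 of TPM plus 1), fits of the compared groups alone, leaving out each library, and the clone or replicate number as a replicate block. Both libraries of MAVS-/- clone 13 were also left out. Added after seeing the data were APOBEC3D summed with ENSG00000284554 or with APOBEC3F, the bounds of APOBEC3G without each library, and the comparisons of 2-day with 1-day DMSO and of both lines with ethanol. The same clones stand in both arms, which pairs the libraries. Deviations from group means correlated at 0.0696 to 0.294 within clones for 2 days of IAA, -0.0122 to 0.122 for 4 days, 0.0937 to 0.459 in MAVS-/- clones and 0.348 to 0.536 in HEK293.

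The members and gene lists were chosen with earlier results of these data known. All 7 members are named in every group. Of other lists, counts are given and at most the 4 genes with the largest change and an adjusted p under 0.05, plus STAT2, IRF9, MYBL2 and UNG. For each member the 3 genes with the highest correlation are named. Some genes these rules select are not reported here. Sequences come from RefSeq (GRCh38.p14).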

Additional observations from a re-analysis of the deposited data

Results flagged for a closer look

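The change with 4OHT differed between the Cre and no-Cre lines for APOBEC3B, by 0.59 on the log2 scale (edgeR interaction, adjusted p 0.0169), and by 0.59 with the replicate number as a block. APOBEC3B was higher with 4OHT in 2 of 2 replicates of the Cre line and lower in 2 of 2 replicates of the no-Cre line.

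With the clone as a replicate block, the change with 4 days of IAA differed between MAVS-/- and intact clones for APOBEC3C, by -1.13, and for APOBEC3F, by -1.42 on the log2 scale. Both were lower with IAA in 3 of 3 MAVS-/- clones and higher in 3 of 3 intact clones. In the reported edgeR fit, which has no block, neither difference passed the threshold (adjusted p 0.0675 for APOBEC3C and 0.0575 for APOBEC3F). Each was called in 6 of the 19 alternatives, which include the block but also DESeq2 and other fits without a block.

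With the same block, the change of APOBEC3C with 4 days of IAA differed between cells with and without CDKi, by -0.845 on the log2 scale. Each of its groups holds 3 libraries, too few to test whether a library lies apart from its group.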

How the results depend on the processing

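The number of APOBEC3 genes called was compared over the settings. It was 0 throughout for 1 day of IAA and for 2 days of CDKi with IAA, and within 1.5 times the reported 4 and 5 for MAVS-/- against intact clones and for the Cre against the no-Cre line with ethanol. With the replicate block, which uses the clone or replicate number, counts became 2 for 2 days of IAA (reported 0), 3 for 4 days (1), 2 for 6 days (1), 3 for 6 against 4 days (1), 1 for 4 days of CDKi with IAA (0), 2 for 4 days of CDKi (0), 1 for CDKi with IAA against IAA (0), 1 for the CDKi difference (0), 2 for MAVS-/- with IAA (1), 2 for the MAVS difference (0), 2 for 2-day against 1-day DMSO (1) and 1 for the no-Cre line (0). The block changed no other count by over 1.5 times, and was not fitted for MAVS-/- against intact clones or the Cre against the no-Cre line, whose libraries share no clone. Without a filter counts were 2 for 2, 4 and 6 days of IAA, 4 for 6 against 4 days, 1 for 2 days and 2 for 4 days of CDKi, 1 for CDKi with IAA against IAA, 2 for the CDKi difference, 3 for MAVS-/- with IAA, 2 for the MAVS difference and 2 for 2-day against 1-day DMSO. DESeq2 gave 2 for 6 days of IAA, 1 for 2 days of CDKi, for CDKi with IAA against IAA and for the CDKi difference, 2 for the MAVS difference, 2 for 4OHT in the Cre line (reported 5) and 0 for the Cre difference (reported 1). limma gave 1 for 2 days of IAA, 2 for 4 days, 0 for 6 against 4 days, 2 and 1 for 2 and 4 days of CDKi, 1 for the CDKi difference, 0 for MAVS-/- with IAA, 2 for 2-day against 1-day DMSO, 3 for the Cre line and 1 for HEK293 (reported 2). Fits of the compared groups alone gave 2 for 2 days of IAA, 0 for 4 against 2 and for 6 against 4 days, 1 and 3 for 2 and 4 days of CDKi, 1 for the CDKi difference, 0 for MAVS-/- with IAA and 3 for 2-day against 1-day DMSO. RLE scaling gave 2 for the Cre difference. Without clone 13 MAVS-/- with IAA and the MAVS difference gave 2 each. Leaving out 1 library gave 1 to 2 for 6 days of IAA, 0 to 1 for 4 against 2 days, 6 against 4 days, CDKi with IAA against IAA, the CDKi difference, 2-day against 1-day DMSO and the no-Cre line, 0 to 2 for MAVS-/- with IAA, the MAVS difference and the Cre difference, 2 to 4 for the Cre line and 1 to 3 for HEK293.

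Single values that turned sign (log2), not counting turns within 1 SE between values that were not called, came mostly from limma or from fits without 1 library. In limma APOBEC3F was 0.71 after 6 days of IAA and 0.30 for 4 days of CDKi with IAA, APOBEC3B 0.11 for 2-day against 1-day DMSO and APOBEC3D -0.19 in the no-Cre line. Over the fits without 1 library APOBEC3B ran from -0.61 to 0.045 after 6 days (the highest without 6-day clone 9), APOBEC3G from -1.83 to 3.39 for CDKi with IAA against IAA (the lowest without clone 7), APOBEC3H from -0.37 to 0.50 in the Cre line, and in the no-Cre line APOBEC3H from -0.41 to 0.48, APOBEC3C from -0.018 to 0.13 and APOBEC3G from -0.014 to 0.69. APOBEC3D summed with APOBEC3F turned to 0.22 after 4 days of IAA, -0.083 for 4 days of CDKi with IAA, 0.053 and 0.48 for 2 and 4 days of CDKi, -0.30 for the CDKi difference and -1.24 for the MAVS difference. In the degron libraries APOBEC3D gave at most 19.7% of the reads of that pair, so the sum largely follows APOBEC3F. The cause of the other turns was not tested. Of the members' values 89 passed newly, 47 no longer passed and 16 turned. The other 1407 kept their side of the threshold, and they include turns within 1 SE between values that were not called. Over all genes, calls moved from 35 to between 22 and 1434 for 1 day of IAA, from 1542 to 274 to 2561 for 4 against 2 days, from 2355 to 61 to 2888 for 6 against 4 days and from 2292 to 574 to 2985 in the no-Cre line. APOBEC3D after 6 days, APOBEC3G in intact clones and APOBEC3H in HEK293 rest on few counts, and shared sequence limits APOBEC3D at any depth.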
